A study of Mus musculus with 48 samples.

Results

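AP-3-84 is a compound known here by its code name alone, with nothing in the labels on what it is. Its effect on gene expression was followed here in macrophages drawn into the mouse peritoneum by thioglycollate, an irritant broth. The comparison rests on 6 of the 48 libraries of the series: 3 of cells kept for 4 h with 10 µM AP-3-84 and 3 of cells kept with an equal amount of DMSO, its vehicle. They were chosen by their titles, with no use of measured values. The cells came from mice of the strain C57BL/6, labelled wild-type C57BL/6, 4 days after 1 ml of 3% thioglycollate was injected into the peritoneum. F4/80-positive cells, F4/80 being a surface protein of macrophages encoded by Adgre1, were sorted on magnetic beads before treatment. A second peritoneal population, treated in the same way, served for comparison. Its libraries were also fitted together with the first, so they share the estimate of spread behind the p-values. It held F4/80-positive cells washed from the peritoneum 45 days after injection of ID8 tumour cells, again 3 libraries with AP-3-84 and 3 with vehicle. The mice were of the strain C57BL/6 with the genotype B6(Cg)-Tyrc-2J/J. This second population is called ascites below. The labels do not say whether the replicates came from separate mice, so p-values measure only the spread between these libraries, which may be technical. They are numbered by their labels' replicate numbers below. Expression was measured with 3′ mRNA libraries, in which a read marks the end of a transcript.

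Several defence programmes that cells run when proteins or redox balance are disturbed recur below. In the heat shock response, the factor HSF1 binds inverted repeats of GAA in gene promoters and raises chaperones, which hold and refold proteins. The factor NRF2, normally degraded through its partner KEAP1, binds antioxidant response elements and raises enzymes of glutathione and thioredoxin metabolism. In the integrated stress response, kinases slow the start of translation while the factor ATF4 raises amino acid transporters and enzymes of amino acid and folate metabolism. Macrophages recruited by thioglycollate derive largely from blood monocytes and carry receptors for antibodies, complement, dead cells and microbes.

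The libraries held 16107057 to 18916322 counts with vehicle and 15532373 to 15828457 with AP-3-84, so the vehicle libraries were all deeper. On the first principal component of log expression, with 50.8% of the variance, the 3 treated libraries lay apart from the 3 vehicle libraries, and AP-3-84 library 3 was the farthest out. The cell label was checked with 16 core macrophage markers, of which none was at 0. Their summed level was 53197 to 54004 CPM (counts scaled to library size) with vehicle and 44164 to 50655 CPM with AP-3-84, and the ranges did not overlap. Most of this sum was Lyz2, at 28693 CPM on average over the 6 libraries, and Lyz2 was not itself called (below). Adgre1, Csf1r, Cd68 and Lyz2 were abundant in all 6 libraries. Markers of other cells were low: B cells summed to 3.75 to 9.78 CPM, T and NK cells to 3.45 to 5.35 CPM, eosinophils to 6.69 to 11.4 CPM and mast cells to 0.736 to 2.78 CPM. The neutrophil list summed to 225 to 241 CPM, most of it Mmp8, with Ly6g, Ngp and Stfa2 at 0 counts. Dendritic cell markers, led by Xcr1, were at 37.2 to 38.5 CPM with vehicle and at 39.3 to 43.3 CPM with AP-3-84. The 17 markers of mesothelial, fibroblast and epithelial cells summed to 37.1 to 48.2 CPM with vehicle and to 58.0 to 65.5 CPM with AP-3-84. They were led by Pecam1, at 15.0 CPM on average over the 6 libraries, with Epcam at 0. The part of such cells in the results below was not tested.

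AP-3-84 changed 733 of 16955 genes at an edgeR adjusted p under 0.05, or 4.32%. Of these, 425 rose (2.51% of all genes tested) and 308 fell (1.82%). The rises were larger than the falls. The median called rise was 0.58 on the log2 scale, a 1.50-fold change, and the median called fall was -0.41. A change of at least 1 on the log2 scale was called for 126 of the rises and for 19 of the falls. Most of these were scarce genes: at an average log2 CPM of at least 3, they were 28 rises and 1 fall. The 51 rises of genes under 1 CPM had a median of 2.29, and the 186 of genes at 10 to 100 CPM one of 0.52. In 732 of the 733 genes, the 3 treated libraries did not overlap the 3 vehicle libraries, as they did for 23.3% of all genes tested. The median log2 fold change of all genes was 0.03. Single libraries moved the total by over 1.5 times: it was 440, 465 and 427 without vehicle libraries 1, 2 and 3, and 445 without AP-3-84 library 3. Of the 425 rises, 199 were called without each of the 6 libraries in turn, and of the 308 falls 101. In a single fit of all 48 libraries of the series, which adds the libraries of bone marrow-derived cells, only 48 rises and 4 falls were called.

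**Figure D1:**
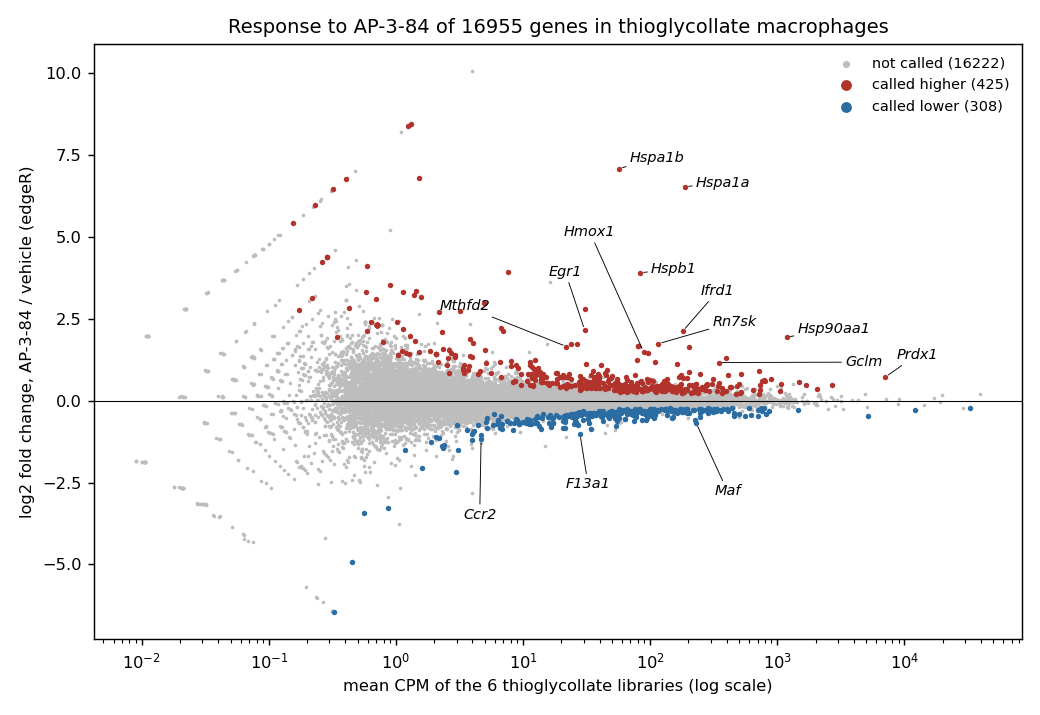
Log2 fold change of each tested gene with AP-3-84 (vertical axis) against its mean level in CPM over the 6 thioglycollate libraries (horizontal axis, log scale), with 425 called rises in red, 308 called falls in blue and other genes in grey. The heat shock genes Hspa1a and Hspa1b stand far above the other abundant genes, while called falls of abundant genes stay close to the line of no change.

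The largest rises among well expressed genes were those of heat shock genes. Because these genes rose together, stretches before their transcription starts are shown, from the RefSeq promoters of GRCm38.p6, with every match to GAANNTTC or TTCNNGAA, an inverted pair of the units that HSF1 binds, in capitals. Both spellings read the same on the opposite strand, and matches may overlap. The stretches lie at chr17:34972207-34972306 on the minus strand (Hspa1a), chr5:135887769-135887868 on the plus strand (Hspb1), chr5:149636337-149636436 on the minus strand (Hsph1) and chr1:55088023-55088122 on the minus strand (Hspd1).
Hspa1a: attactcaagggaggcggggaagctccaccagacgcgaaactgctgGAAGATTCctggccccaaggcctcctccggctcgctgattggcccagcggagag
Hspb1: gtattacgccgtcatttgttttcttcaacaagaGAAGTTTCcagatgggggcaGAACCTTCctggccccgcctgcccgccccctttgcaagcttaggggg
Hsph1: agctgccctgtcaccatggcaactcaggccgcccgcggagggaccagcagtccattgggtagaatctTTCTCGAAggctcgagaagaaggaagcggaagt
Hspd1: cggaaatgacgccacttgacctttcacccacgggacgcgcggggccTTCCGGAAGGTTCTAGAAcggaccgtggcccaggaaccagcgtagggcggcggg
The same stretch of Hspa1b (chr17:34959289-34959388, minus strand) has the same letters as that of Hspa1a, and their 250 bases before the start differ at 3 positions. The pair starts 104 bases before the start of Hspa1a, 117 and 97 before that of Hspb1 and 33 before that of Hsph1, and 3 overlapping matches start 144, 139 and 134 bases before that of Hspd1. The stretch of Hspd1 also lies just before the chaperonin gene Hspe1, which begins at 55088132 on the opposite strand. Hspe1 had a log2 fold change of 0.14 and was not called. Of all 11068 tested genes with a promoter in that table, 12.8% held a match in the 250 bases before the start. Of 17 chaperone genes called higher, 13 had a promoter there, and 7 of these held a match. Of all 64 members of the chaperone lists with a promoter, called or not, 17 held a match. Among all called genes, a match was as frequent in falls (16.4%) as in rises (15%). The starts used here are those of RefSeq, while the gene coordinates given below are those of GENCODE, and the 2 can differ. In GENCODE the spans of Hsph1 and Hspd1 reach past these starts, so the matches shown for both lie within the GENCODE genes. A match is a description of letters and not a shown binding site.

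Hspa1a (ENSMUSG00000091971, chromosome 17, 34969190 to 34972156 in GRCm38) and Hspa1b (ENSMUSG00000090877, chromosome 17, 34956436 to 34959238) encode the inducible HSP70, a chaperone that is nearly silent in resting cells. Hspa1a stood at 3.13, 5.47 and 3.53 CPM in the vehicle libraries and at 413, 306 and 396 CPM in the treated ones. Hspa1b stood at 0.894, 1.03 and 0.597 CPM with vehicle and at 133, 97.0 and 108 CPM with AP-3-84. The groups were thus far apart for both genes, with rises of 91.9-fold (log2 fold change 6.52, standard error 0.181, edgeR adjusted p 2.17e-09) and 134-fold (7.07, standard error 0.166, edgeR adjusted p 5.15e-13). Their transcripts share 68% of the 30-base stretches of the smaller set, so how reads were divided between them is uncertain. Hspb1 (chromosome 5, 135887919 to 135889563), the small heat shock protein HSP25, rose from 9.58, 12.1 and 9.82 CPM to 151, 124 and 194 CPM, a 14.9-fold change (log2 fold change 3.90, standard error 0.267, edgeR adjusted p 7.11e-05).

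Hsp90aa1 (chromosome 12, 110690605 to 110702728), the stress-inducible HSP90, was among the most abundant of the genes that rose. It stood at 483, 490 and 505 CPM with vehicle and at 1777, 1852 and 2023 CPM with AP-3-84 (log2 fold change 1.94, standard error 0.0691, edgeR adjusted p 2.23e-11). Hsph1 (chromosome 5, 149614287 to 149636376), an HSP110 that exchanges the nucleotide of HSP70, rose from 47.2, 53.7 and 52.9 CPM to 137, 135 and 149 CPM (log2 fold change 1.45, standard error 0.0884, edgeR adjusted p 2.69e-08). In both genes the lowest treated library lay well above the highest vehicle library. Partners that are already abundant in resting cells rose less: Hspa8, the constitutive HSP70, by 0.60, Hsp90ab1, the constitutive HSP90, by 0.48, and the mitochondrial chaperonin Hspd1 by 0.45 on the log2 scale (edgeR adjusted p 3.08e-05, 0.000443 and 7.65e-05).

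Across the HSP70 family, 5 of 13 tested members rose and none fell (median log2 fold change 0.30, against 0.03 for all genes), a count that did not change without any 1 library. Besides the genes above these included Hspa9, the mitochondrial HSP70, with 0.58. Of 25 HSP90, chaperonin and partner genes, 7 rose and 1 fell (median 0.19). The co-chaperone Ptges3 rose by 0.33 (edgeR adjusted p 0.00427), and the mitochondrial HSP90 Trap1 fell by 0.44. That fall was not called without AP-3-84 library 1 or 3 or any 1 vehicle library (edgeR adjusted p 0.0537 to 0.125, against 0.00984 to 0.525 over all alternatives). J-domain co-chaperones, which hand clients to HSP70, had 3 rises among 24 (median 0.11), led by Dnaja1 with 0.67 (edgeR adjusted p 4.83e-05), and 1 without vehicle library 2. Dnajb1, the J-domain partner best known from the heat shock response, stood at 26.2 CPM with vehicle and at 34.1 CPM with AP-3-84 on average (log2 fold change 0.38, edgeR adjusted p 0.16), and the groups overlapped. Hsf1 itself had a log2 fold change of 0.46 at an edgeR adjusted p of 0.341. Of 15 BAG, small heat shock and HSF genes, 2 rose (median 0.12): Hspb1, and Bag3, a co-chaperone of HSP70, with 0.41. Bag3 was not called without AP-3-84 library 2 or any 1 vehicle library (edgeR adjusted p 0.0547 to 0.0909, against 0.000816 to 0.825 over all alternatives).

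Some genes of protein disposal rose by smaller amounts. Of 33 proteasome subunits, 11 rose and none fell (median 0.17, highest 0.47). The lid subunits Psmd11 and Psmd7, the catalytic subunit Psmb5 and the ubiquitin receptor Adrm1 rose by 0.46, 0.38, 0.34 and 0.33 (edgeR adjusted p 0.000205, 0.001, 0.00119 and 0.00521), and these 4 calls held without any 1 library. The count was 5 and 7 without AP-3-84 libraries 2 and 3, and 6, 4 and 7 without vehicle libraries 1, 2 and 3. Among 21 ubiquitin and quality control genes, 5 rose (median 0.12), and 3 without AP-3-84 library 2 or 3 or vehicle library 2 or 3. Sqstm1, the autophagy receptor p62, led them with 521, 492 and 488 CPM with vehicle and 940.1, 833 and 1019 CPM with AP-3-84 (log2 fold change 0.90, standard error 0.085, edgeR adjusted p 7.98e-06). Zfand5, a proteasome activator, rose by 0.35 (edgeR adjusted p 0.00142). The unfolded protein response of the endoplasmic reticulum had 3 rises among 25 genes (median 0.12), with Hspa5, its main chaperone, at 0.50 (edgeR adjusted p 0.000798). That count was 1 without AP-3-84 library 2 or any 1 vehicle replicate. Xbp1 and Dnajb9, targets of its IRE1 arm, had log2 fold changes of 0.02 and 0.12 (edgeR adjusted p 0.968 and 0.814).

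Targets of NRF2 were the list with the largest share of rises, 20 of 31, and none of them fell (median log2 fold change 0.64). Without any 1 library, 17 to 19 rose. Stretches before the starts of 3 of them are shown with matches to the core of the antioxidant response element, TGACNNNGC on either strand, in capitals. They lie on the plus strand at chr3:122245387-122245466 (Gclm), chr10:82859094-82859142 (Txnrd1) and chr4:116685446-116685494 (Prdx1), and the capitals show the reverse strand's spelling, GCNNNGTCA.
Gclm: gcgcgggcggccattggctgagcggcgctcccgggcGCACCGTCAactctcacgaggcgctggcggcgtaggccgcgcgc
Txnrd1: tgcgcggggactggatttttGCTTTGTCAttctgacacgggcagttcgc
Prdx1: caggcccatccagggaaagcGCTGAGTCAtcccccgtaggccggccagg
In the 250 bases before the start, 13.7% of all 11068 genes held this core. Of the 20 NRF2 targets called higher, 15 had a promoter in the table, and 4 of these held it. Of all 25 members of the list with a promoter, called or not, 6 held it. Among all called genes, 18.1% of the rises and 12.6% of the falls held it.

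Slc7a11 (chromosome 3, 49892526 to 50443614) imports cystine for glutathione synthesis and is also a target of ATF4. It rose from 13.3, 10.7 and 9.22 CPM to 38.5, 35.5 and 35.6 CPM (log2 fold change 1.72, standard error 0.129, edgeR adjusted p 3.91e-07). Gclm (chromosome 3, 122245557 to 122270732), the modifier subunit of the enzyme that makes the glutathione precursor, rose from 218, 212 and 211 CPM to 459, 472 and 500 CPM (log2 fold change 1.16, standard error 0.0593, edgeR adjusted p 2.80e-09). Gclc, the catalytic subunit, rose by 0.78. Srxn1 (chromosome 2, 152105516 to 152111376), which reactivates peroxiredoxins, rose from 222, 227 and 234 CPM to 557, 538 and 575 CPM (log2 fold change 1.29, standard error 0.0689, edgeR adjusted p 4.59e-09). In all 3 genes the spread within a group was small beside the distance between groups. Prdx1, a peroxiredoxin and one of the most abundant transcripts of these cells, rose from 5435, 5425 and 5209 CPM to 8728, 8559 and 9133 CPM (log2 fold change 0.72, standard error 0.0508, edgeR adjusted p 1.83e-07). The thioredoxin reductase Txnrd1, the glutathione reductase Gsr, catalase (Cat) and the pentose phosphate enzymes Pgd and Taldo1 rose by 0.81, 0.57, 0.64, 0.62 and 0.30. Nqo1, the usual reporter of NRF2, was scarce, at 1.40, 2.19 and 3.25 CPM with vehicle and 4.39, 4.28 and 4.62 CPM with AP-3-84 (log2 fold change 0.94, edgeR adjusted p 0.031), and its call was kept only without vehicle library 3 (edgeR adjusted p 0.0693 to 0.126 without the others, and 0.00559 to 0.749 over all alternatives). The transcripts of NRF2 itself, Nfe2l2, and of Keap1 had log2 fold changes of -0.17 and 0.07 (edgeR adjusted p 0.162 and 0.652).

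Hmox1 (chromosome 8, 75093621 to 75100589), the heme oxygenase, rose from 49.6, 47.9 and 42.5 CPM to 133, 123 and 136 CPM (log2 fold change 1.49, standard error 0.128, edgeR adjusted p 7.98e-06). It is on the lists of NRF2 targets and of heme, iron and metallothionein genes, where 4 of 18 members rose and 1 fell (median 0.11). The iron exporter Slc40a1 rose by 1.00, the zinc exporter Slc30a1 by 0.47 and Alas1, the first enzyme of heme synthesis, by 0.46 (edgeR adjusted p 0.000392, 0.0012 and 0.000274). The transferrin receptor Tfrc stood at 307, 268 and 296 CPM with vehicle and at 220, 202 and 188 CPM with AP-3-84. It fell by 0.51 (edgeR adjusted p 0.0136), but not without AP-3-84 library 2 or 3 or vehicle library 1 or 3 (edgeR adjusted p 0.0594 to 0.0744, against 8.19e-09 to 1 over all alternatives). The ferritin chains Fth1 and Ftl1 had log2 fold changes of -0.04 and 0.16 (edgeR adjusted p 0.823 and 0.321), and the metallothioneins Mt1 and Mt2 of -0.02 and 0.06 (edgeR adjusted p 0.917 and 0.897).

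The integrated stress response had 15 rises and no fall among 29 tested genes (median 0.55), and 12 or 13 rises without any 1 library. Mthfd2 (chromosome 6, 83305691 to 83325908), a mitochondrial folate enzyme, rose from 9.51, 12.1 and 10.3 CPM to 35.9, 31.1 and 32.9 CPM (log2 fold change 1.65, standard error 0.0969, edgeR adjusted p 1.78e-08). Slc7a1 (chromosome 5, 148327410 to 148399904), a transporter of arginine and lysine, rose from 7.02, 7.17 and 7.59 CPM to 16.2, 15.2 and 14.5 CPM (log2 fold change 1.07, standard error 0.107, edgeR adjusted p 1.22e-05). Vehicle and treated libraries did not overlap in either gene. Ppp1r15a (GADD34), which recruits the phosphatase that ends the response, rose by 1.08, and Atf4 itself from 154, 147 and 148 CPM to 229, 247 and 245 CPM (log2 fold change 0.68, standard error 0.0851, edgeR adjusted p 0.000115). The asparagine synthetase Asns, chosen after its values were seen, had 0.319, 0.85 and 1.30 CPM with vehicle and 6.52, 4.48 and 5.69 CPM with AP-3-84 (log2 fold change 2.72). Ddit3 (CHOP) rose by 0.62 at an edgeR adjusted p of 0.0168. It was not called without AP-3-84 library 2 or 3 or any 1 vehicle library (edgeR adjusted p 0.0727 to 0.0836, against 2.40e-09 to 0.883 over all alternatives). The element TGATGNAAT on either strand, a core of ATF4 sites, was found in the promoters of 0.524% of all genes and in 1 of the 15 genes of the list called higher, all 15 of which had a promoter in the table.

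Genes of the translation machinery moved with this response in part. Of 20 cytosolic aminoacyl-tRNA synthetases, which load amino acids onto tRNA, 5 rose and none fell (median 0.17). Cars, Aars and Eprs rose by 0.77, 0.75 and 0.50 (edgeR adjusted p 0.00692, 0.000217 and 0.000114), and 3 members were called without vehicle library 1. Of 43 translation initiation factors, 6 rose (median 0.09), led in p by Eif5 with 0.47 (edgeR adjusted p 8.86e-05). That count was 3, 3 and 2 without AP-3-84 libraries 1, 2 and 3, and 1, 1 and 3 without vehicle libraries 1, 2 and 3. Of 65 cytosolic ribosomal proteins, 1 rose, Rplp1 (0.34, edgeR adjusted p 0.00691), and the median was 0.06. Without AP-3-84 library 1 the count was 4.

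Immediate early genes and the phosphatases that restrain MAP kinases formed another group of rises. Egr1 (chromosome 18, 34859823 to 34864984), a zinc finger factor induced within minutes of many stimuli, rose from 9.07, 10.9 and 13.7 CPM to 48.6, 46.1 and 54.8 CPM (log2 fold change 2.15, standard error 0.169, edgeR adjusted p 5.28e-06). Jun rose from 289, 291 and 319 CPM to 480, 511 and 562 CPM (log2 fold change 0.79, standard error 0.0815, edgeR adjusted p 1.67e-05). In the list of AP-1 and immediate early genes, 10 of 31 rose and none fell (median 0.35), and 9 or 10 without any 1 library. Atf3 and Ier5 rose by 0.51 and 0.50 (edgeR adjusted p 0.000317 and 0.000443). Fos and Junb, partners of Jun in AP-1, had log2 fold changes of 0.33 and 0.08 (edgeR adjusted p 0.321 and 0.74). Among 10 dual-specificity phosphatases, 5 rose (median 0.72), and 4 or 5 without any 1 library. Dusp1 (chromosome 17, 26505590 to 26562128), which inactivates p38 and JNK, rose from 14.0, 9.53 and 13.02 CPM to 47.4, 36.2 and 38.0 CPM (log2 fold change 1.73, standard error 0.135, edgeR adjusted p 6.80e-07). The inducible nuclear Dusp5 and the ERK phosphatase Dusp6 rose by 1.10 and 0.45 (edgeR adjusted p 0.0103 and 0.00573), and Dusp16 by 0.80 (edgeR adjusted p 0.00559).

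Ifrd1 (chromosome 12, 40201567 to 40248504), a transcriptional coregulator outside these lists, had the largest rise of any non-chaperone gene at over 100 CPM with AP-3-84. It stood at 66.1, 68.0 and 68.8 CPM with vehicle and at 312, 249 and 320 CPM with AP-3-84 (log2 fold change 2.12, standard error 0.0857, edgeR adjusted p 1.11e-10).

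**Figure D2:**
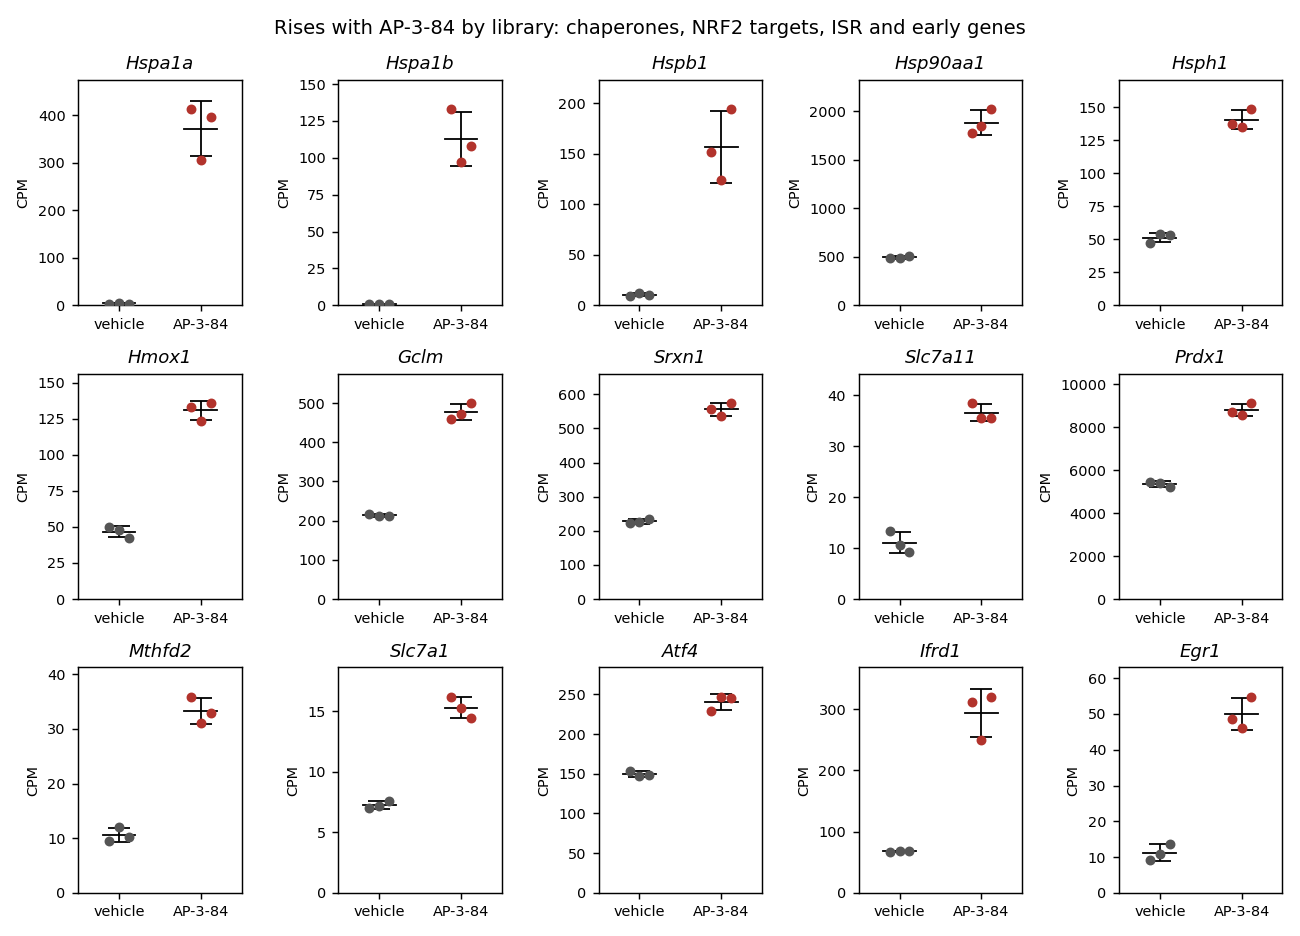
Level of 15 genes in CPM in each of the 3 vehicle (grey) and 3 AP-3-84 (red) libraries, with the mean and SD as black lines and every axis starting at 0. In each panel the treated libraries lie above all vehicle libraries, with the widest gap in Hspa1a, Hspa1b and Hspb1.

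Calls among inflammatory, survival and p53 genes differed by list, against 4.32% of all genes tested. The share was larger than that for inflammatory cytokines and enzymes and for p53 targets. None of 17 NF-kB subunits and inhibitors was called by edgeR or by DESeq2 (median -0.01). An unadjusted edgeR p under 0.05 was found for 4 of them, and for 2665 of all 16955 genes tested. The inhibitor Nfkbia, itself an NF-kB target, stood at 253, 229 and 255 CPM with vehicle and at 240, 249 and 219 CPM with AP-3-84. None of 15 BCL2 family genes was called by edgeR or by DESeq2 (median 0.02), and 1 rose without AP-3-84 library 3. Of these 15 genes, 6 had an unadjusted edgeR p under 0.05, a larger share than among all genes tested. Of 22 tested inflammatory cytokines and enzymes, 3 rose (median 0.12): the growth factor Hbegf by 1.18, the prostaglandin E synthase Ptges by 0.73 and the macrophage growth factor Csf1 by 0.85 (edgeR adjusted p 7.00e-05, 0.00741 and 0.0418). Csf1 was not called without AP-3-84 library 1 or 2 or any 1 vehicle library (edgeR adjusted p 0.056 to 0.162, against 0.0147 to 0.88 over all alternatives). Tnf had 6.90, 5.40 and 5.53 CPM with vehicle and 6.91, 7.42 and 10.8 CPM with AP-3-84 (log2 fold change 0.50, edgeR adjusted p 0.169), and Il1b was at 1.36 CPM or less in every library. Among 24 p53 targets, 3 rose and 1 fell (median 0.01), and the fall was kept only without AP-3-84 library 1. Mdm2, the ligase that degrades p53, rose from 145, 134 and 150 CPM to 258, 251 and 274 CPM (log2 fold change 0.87, standard error 0.068, edgeR adjusted p 6.81e-07), and Plk2 by 0.67 (edgeR adjusted p 0.000134). Cdkn1a (p21), Ccng1 and Trp53 had log2 fold changes of 0.13, -0.21 and 0.09 (edgeR adjusted p 0.713, 0.302 and 0.863), and their groups overlapped.

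Genes that mark macrophages and their surface were among the 308 falls, though they made up a small part of them. In these bulk samples, fewer cells of a type and less RNA per cell cannot be told apart. The largest fall among well expressed genes was that of F13a1 (chromosome 13, 36867178 to 37050244), the factor XIII subunit of monocytes and macrophages, from 36.7, 37.8 and 38.4 CPM to 19.6, 16.9 and 19.0 CPM (log2 fold change -1.02, standard error 0.0928, edgeR adjusted p 4.30e-06). Ccr2 (chromosome 9, 124101950 to 124113557), the receptor by which monocytes leave the marrow, fell from 6.70, 5.22 and 7.54 CPM to 2.97, 2.61 and 3.01 CPM (log2 fold change -1.18, standard error 0.131, edgeR adjusted p 3.73e-05). Cx3cr1 (chromosome 9, 119901616 to 120069879), the fractalkine receptor, fell from 28.9, 28.4 and 25.3 CPM to 16.7, 14.6 and 15.3 CPM (log2 fold change -0.82, standard error 0.0959, edgeR adjusted p 6.06e-05). These receptors and F13a1 belong to a list of monocyte-derived macrophage genes, in which 6 of 15 fell and 1 rose (median -0.39), and 5 or 6 fell without any 1 library. The other falls of the list were H2-Ab1, Fn1 and Retnla. Its single rise, Vcan, was at 0.511, 1.34 and 0.542 CPM with vehicle and at 2.84, 1.74 and 2.07 CPM with AP-3-84 (log2 fold change 1.47, edgeR adjusted p 0.0321). Vcan was not called without AP-3-84 library 1 or 3 or vehicle library 1 or 3 (edgeR adjusted p 0.0669 to 0.15, against 0.0075 to 0.234 over all alternatives). Of 32 chemokines and their receptors, 3 fell and 1 rose (median 0.03). Ccr2 and Cx3cr1 were joined by Cxcr4, the receptor that keeps cells in the marrow, with a fall of 0.33, and the rise of Ccr1, an inflammatory chemokine receptor, was not called without any 1 library.

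Of the 16 core macrophage markers, 5 fell and 1 rose (median -0.18). Fcgr1 (chromosome 3, 96282909 to 96293969), the high-affinity IgG receptor, fell from 35.8, 33.9 and 31.7 CPM to 20.2, 22.1 and 18.6 CPM (log2 fold change -0.73, standard error 0.0844, edgeR adjusted p 5.32e-05). Maf (chromosome 8, 115682942 to 115707794), a factor of macrophage differentiation, fell from 288, 265 and 299 CPM to 179, 186 and 165 CPM (log2 fold change -0.69, standard error 0.0958, edgeR adjusted p 0.000489). Adgre1, the gene of the protein used for sorting, fell by a small amount, from 249.9, 254 and 229 CPM to 207, 193 and 197 CPM (log2 fold change -0.30, standard error 0.0577, edgeR adjusted p 0.00587). In all 3 genes the groups did not overlap. Other markers did not pass the test: Csf1r had a log2 fold change of -0.18, Lyz2 of -0.21, Itgam of -0.10 and Cd68 of -0.04 (edgeR adjusted p 0.35, 0.171, 0.849 and 0.846). Cd14, a coreceptor for lipopolysaccharide, rose by 0.34 (edgeR adjusted p 0.0407), but not without AP-3-84 library 1 or 3 or vehicle library 2 or 3 (edgeR adjusted p 0.131 to 0.189, against 0.00396 to 1 over all alternatives). Of 20 genes of resident peritoneal macrophages, 1 fell (median 0.06). It was Fn1, kept only without AP-3-84 library 1 (edgeR adjusted p 0.0547 to 0.103 without the others, and 0.00423 to 1 over all alternatives).

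Some receptors for antibodies and dead cells fell, Fcgr1 and Mertk among them, which the core markers also hold. Of 35 Fc, scavenger and phagocytic receptors, 7 fell and 1 rose (median -0.10), and 6 or 7 fell without any 1 library. Axl (chromosome 7, 25757273 to 25788705), a receptor for dying cells, fell from 33.1, 33.3 and 33.1 CPM to 19.5, 20.5 and 21.2 CPM (log2 fold change -0.70, standard error 0.0845, edgeR adjusted p 8.50e-05). Its relative Mertk fell by 0.30, but not without vehicle library 3 (edgeR adjusted p 0.0682, against 0.00186 to 1 over all alternatives), while Tyro3, the third member of that kinase family, was the list's rise. Tyro3 stayed at 1.00 CPM or less in every library and was not called without vehicle library 2 or 3 (edgeR adjusted p 0.0553 and 0.0606, against 0.00615 to 0.142 over all alternatives). The inhibitory IgG receptor Fcgr2b and the scavenger receptor Stab1 fell by 0.49 and 0.48 (edgeR adjusted p 0.000291 and 0.00212). Among 29 complement and coagulation genes, 4 fell and 3 rose (median -0.06). C1qc and C1qb, chains of the complement starter C1q, fell by 0.45 and 0.41 (edgeR adjusted p 6.63e-05 and 0.00739), while C1qa had a log2 fold change of -0.20 (edgeR adjusted p 0.176). Procr, the endothelial protein C receptor, rose from 47.2, 46.3 and 47.7 CPM to 103, 116 and 113 CPM (log2 fold change 1.23, standard error 0.076, edgeR adjusted p 2.95e-08). The rises numbered 1 without vehicle library 1. Sirpa, the receptor for the signal that spares healthy cells from phagocytosis, fell by 0.46 (edgeR adjusted p 0.00171).

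Among interferon and antigen presentation genes, falls outnumbered rises, and most genes were not called. Of 53 interferon-stimulated genes, 9 fell and 1 rose (median -0.21). Irf7 (chromosome 7, 141262706 to 141266481), the factor that amplifies type I interferon, fell from 26.3, 18.0 and 19.9 CPM to 13.8, 13.2 and 12.4 CPM (log2 fold change -0.70, standard error 0.111, edgeR adjusted p 0.00159). Oasl2 (chromosome 5, 114896936 to 114912234) fell from 22.0, 19.3 and 17.8 CPM to 11.4, 12.0 and 13.4 CPM (log2 fold change -0.68, standard error 0.0853, edgeR adjusted p 0.000119). The antiviral gene Rsad2 went the other way, from 35.1, 29.5 and 29.9 CPM to 43.4, 40.8 and 51.7 CPM (log2 fold change 0.53, standard error 0.092, edgeR adjusted p 0.00259). Isg15 had a log2 fold change of 0.32 (edgeR adjusted p 0.281). The count of falls was 4 without AP-3-84 library 3 or vehicle library 3, and 14 in DESeq2. Of 35 genes of interferon-gamma GTPases, MHC and the immunoproteasome, 4 fell and 1 rose (median -0.27). The MHC class II chains H2-Eb1 and H2-Ab1 fell by 0.61 and 0.48 (edgeR adjusted p 0.00938 and 0.00521), but H2-Eb1 not without AP-3-84 library 2 (edgeR adjusted p 0.0507, against 1.77e-11 to 1 over all alternatives). H2-Aa and Cd74, which work with them, had log2 fold changes of -0.54 and -0.40 (edgeR adjusted p 0.119 and 0.115), with all treated libraries below all vehicle libraries in both, as for 10.6% of all genes tested. The falls numbered 2 without AP-3-84 library 2 and 9 in DESeq2, and the rise was kept only without AP-3-84 library 1.

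Pattern receptors moved in both directions. Of 25 Toll-like and other pattern receptors, 5 fell and 3 rose (median -0.06). The C-type lectins Clec4n (Dectin-2) and Clec4d, which recognise fungi, rose by 0.81 and 0.59 (edgeR adjusted p 2.80e-05 and 4.19e-05). Clec4n went from 32.1, 25.3 and 27.4 CPM to 44.3, 53.4 and 51.3 CPM, and Clec4d from 642, 583 and 582 CPM to 902, 907 and 905 CPM. Tlr3, the endosomal receptor for double-stranded RNA, fell by 0.70 (edgeR adjusted p 0.005). The falls numbered 2 without vehicle library 1 and 3 without any other 1 library. Of 25 markers of alternative activation, 4 fell and 2 rose (median -0.23). Retnla, the most often used of them in the mouse, fell from 123, 124 and 126 CPM to 94.1, 96.8 and 92.9 CPM (log2 fold change -0.39, standard error 0.0577, edgeR adjusted p 0.000535), and Arg1 had a log2 fold change of 0.12 (edgeR adjusted p 0.593). Neither of the 2 rises, Tgm2 and Klf4, was called without AP-3-84 library 3 or vehicle library 1 or 3 (edgeR adjusted p 0.0735 to 0.1 for Tgm2 and 0.14 to 0.189 for Klf4, against 0.00223 to 1 and 0.00662 to 0.897 over all alternatives). Klf4 was also not called without AP-3-84 library 2 (edgeR adjusted p 0.0611).

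The other falls of the named genes spread over several roles. Cacna1d (chromosome 14, 30039939 to 30491455), a calcium channel subunit, fell from 43.0, 48.5 and 41.5 CPM to 26.6, 21.4 and 25.0 CPM (log2 fold change -0.87, standard error 0.105, edgeR adjusted p 8.86e-05). Man1c1 (chromosome 4, 134561690 to 134704290), a Golgi mannosidase, fell from 73.5, 62.2 and 67.5 CPM to 40.8, 39.5 and 38.5 CPM (log2 fold change -0.77, standard error 0.1, edgeR adjusted p 0.000156). Man1c1 and Pld4, an endolysosomal nuclease (log2 fold change -0.78, edgeR adjusted p 0.000416), were the only 2 falls called in each of 15 alternatives, the fit of all 48 libraries included. The threshold of at least 1 on the log2 scale was not among these 15, and neither gene reaches it. Rnase4, a secreted ribonuclease, fell by 0.83 and overlaps Ang on the same strand (log2 fold change -0.65), so how reads were divided between them is uncertain. Fabp5, a fatty acid carrier, fell from 5892, 5987 and 6128 CPM to 4042, 4509 and 4567 CPM (log2 fold change -0.46, standard error 0.0581, edgeR adjusted p 0.000134), and the cholesterol exporter Abca1 by 0.49 (edgeR adjusted p 0.000217). They were the 2 falls among 29 LXR and lipid handling genes (median -0.10), where none rose. In 31 genes of cholesterol and fatty acid synthesis, 3 fell (median -0.22), but the count was 2 without AP-3-84 library 2 and 0 without any other 1 library.

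**Figure D3:**
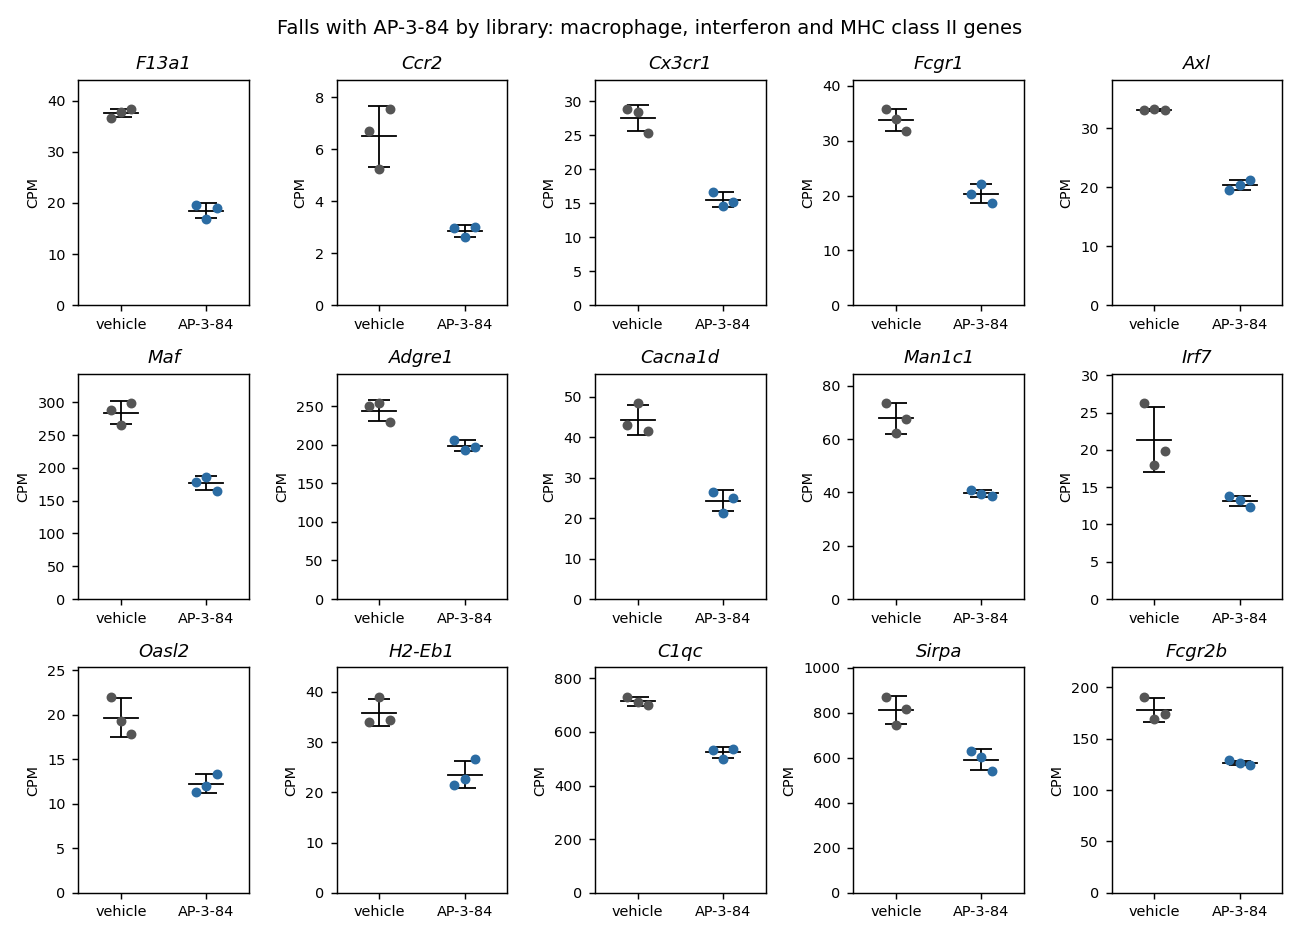
Level of 15 genes in CPM in each of the 3 vehicle (grey) and 3 AP-3-84 (blue) libraries, with the mean and SD as black lines and every axis starting at 0. In each panel the treated libraries lie below all vehicle libraries.

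**Figure D4:**
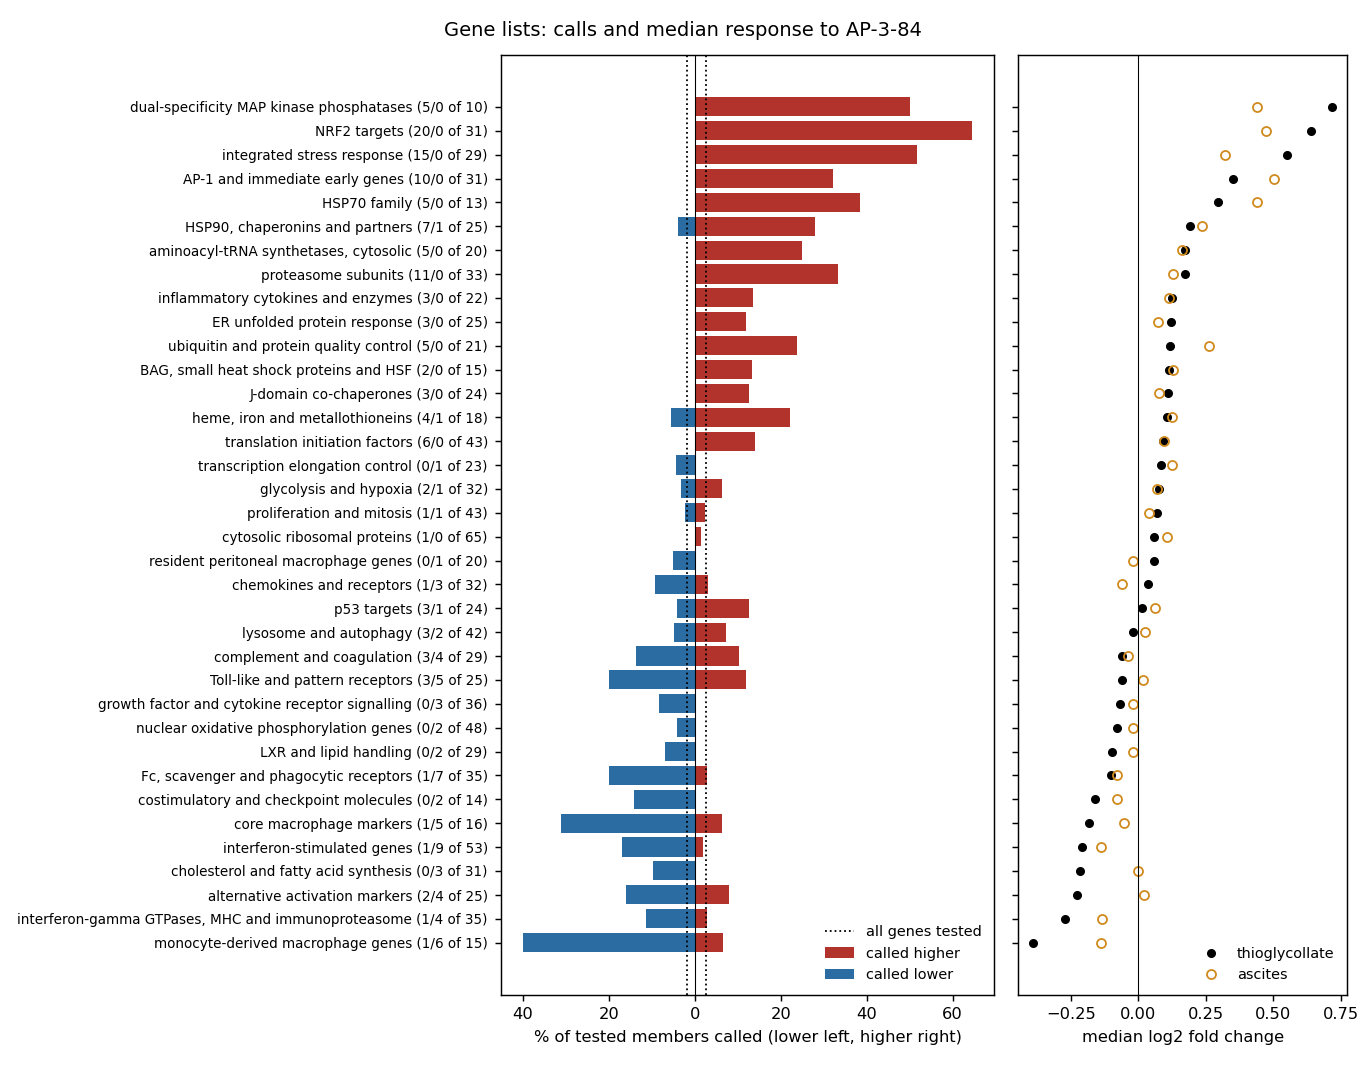
Left, share of the tested members of each gene list called lower (blue, to the left) and called higher (red, to the right), with the numbers of higher and lower calls beside each name and dotted lines at the shares over all genes, 2.51% and 1.82%. Right, median log2 fold change of each list in thioglycollate (filled) and ascites (open) macrophages; NRF2 targets have the largest share of rises and monocyte-derived macrophage genes the largest share of falls.

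Lists of basic metabolism and growth had small median changes. Against 4.32% of all genes tested, the share called was larger for glycolysis and hypoxia and for lysosome and autophagy genes. It was near that for oxidative phosphorylation and proliferation genes. Of 48 nuclear genes of oxidative phosphorylation, 2 fell (median -0.08), but no call was left without 5 of the 6 libraries, all but vehicle library 2. Of 32 glycolysis and hypoxia genes, 2 rose and 1 fell (median 0.08), and the fall was lost without any 1 library. The rises were the glucose transporter Slc2a1 with 0.69 and Pgk1 with 0.30 (edgeR adjusted p 0.00109 and 0.00615). Of 43 proliferation genes, 1 rose and 1 fell (median 0.07), the rise being kept only without AP-3-84 library 3 and the fall being lost without AP-3-84 library 2 or 3 or vehicle library 2. Of 42 lysosome and autophagy genes, 3 rose and 2 fell (median -0.02), and the falls numbered 0 or 1 without any 1 library. The rises included the proton pump subunit Atp6v1h at 0.55 and the autophagosome gene Gabarapl1 at 0.41 (edgeR adjusted p 0.00115 and 0.0063).

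Short RNAs of RNA polymerase III were also among the largest rises. Rn7sk (chromosome 9, 78175303 to 78175633), the 7SK RNA that holds the elongation factor P-TEFb inactive, rose from 56.8, 57.6 and 46.8 CPM to 158, 169 and 208 CPM (log2 fold change 1.73, standard error 0.143, edgeR adjusted p 3.70e-05). Rn7s1 and Rn7s2, copies of the RNA of the signal recognition particle, had the same counts in every library, 50.1, 34.0 and 32.8 CPM with vehicle and 81.8, 133 and 152 CPM with AP-3-84 (log2 fold change 1.65, standard error 0.319, edgeR adjusted p 0.0243). Rn7s1 and Rn7s2 thus count as 1 measurement, not called without AP-3-84 library 2 or 3 or vehicle library 2 or 3 (edgeR adjusted p 0.0766 to 0.104, against 2.14e-05 to 0.201 over all alternatives). Of 41 tested genes annotated as rRNA, 36 were called higher, but they had only 3 distinct profiles of counts. With genes of the same counts taken once, 696 of the 733 calls remain as distinct profiles. Such RNAs normally carry no poly(A) tail, on which these libraries are primed, and the part of priming or RNA quality in these rises was not tested. Tmprss11a (chromosome 5, 86410410 to 86468990), a serine protease gene of epithelia, rose from 7.28, 8.44 and 7.38 CPM to 46.3, 47.7 and 65.8 CPM (log2 fold change 2.79, standard error 0.238, edgeR adjusted p 0.000122).

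The response was then set beside that of ascites macrophages, where 286 genes rose (1.69% of those tested) and 17 fell (0.1%), or 1.79% in all. Of the 425 rises in thioglycollate macrophages, 187 (44%) were also called higher in ascites, which is 65.4% of the ascites rises. Of the 308 falls, 11 (3.57%) were also called lower in ascites, which is 64.7% of the ascites falls. No gene was called in opposite directions. The falls had a median log2 fold change of -0.14 in ascites, with 274 of 308 below 0, and the rises one of 0.37, with 407 of 425 above 0. For all genes tested, the median in ascites was -0.005. A direct test of the difference between the responses called 20 genes, or 0.118% of those tested, of which 14 had risen and 3 had fallen in thioglycollate macrophages, so for most genes called in 1 population the difference itself was not called. Leaving out 1 library moved this count to between 7 and 26, with 8, 9 and 8 genes without thioglycollate vehicle libraries 1, 2 and 3 and 9 and 10 without thioglycollate AP-3-84 libraries 1 and 2. Without ascites vehicle libraries 1, 2 and 3 it was 12, 7 and 8, and without ascites AP-3-84 library 2 it was 10.

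Mthfd2 had the lowest p of these differences. In ascites it was already at 76.9, 74.8 and 77.2 CPM with vehicle, against 9.51 to 12.1 CPM in thioglycollate macrophages, and stood at 88.4, 84.8 and 79.6 CPM with AP-3-84 (log2 fold change 0.14). Its response was larger in thioglycollate macrophages by 1.50 (standard error 0.13, edgeR adjusted p 4.22e-05). Ifrd1 rose in both, by 2.12 and 1.08, and the difference of 1.04 was called (edgeR adjusted p 0.000628). Rgs1, a brake on G protein signals, rose by 1.11 in thioglycollate and 0.34 in ascites macrophages (difference 0.78, edgeR adjusted p 0.00261). Mmp13, a collagenase, rose from 43.7, 41.4 and 42.5 CPM to 66.4, 72.8 and 63.2 CPM in thioglycollate macrophages, and its log2 fold change in ascites was -0.19 (difference 0.85, edgeR adjusted p 0.00261). Gadd45b, a stress gene, went the other way: it stood at 61.9, 62.6 and 59.7 CPM with vehicle and 61.9, 66.8 and 66.7 CPM with AP-3-84 in thioglycollate macrophages, and rose by 1.19 in ascites (difference -1.11, edgeR adjusted p 0.000628). Hspa1a and Hsph1 rose in both populations and by more in ascites, by 8.22 and 2.13, with differences of -1.69 and -0.68 (edgeR adjusted p 0.0389 for each). Hspa1b, Hspb1 and Hsp90aa1 had no called difference (edgeR adjusted p 0.809, 0.915 and 0.874).

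**Figure D5:**
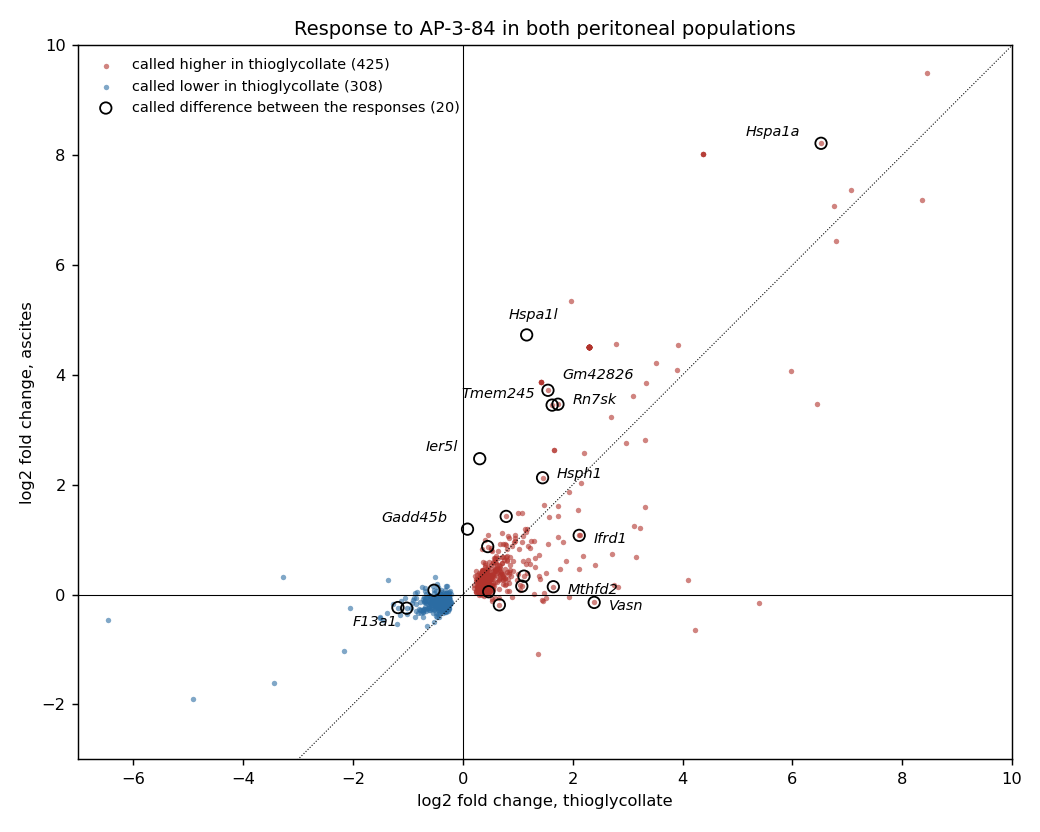
Log2 fold change with AP-3-84 in ascites macrophages (vertical axis) against that in thioglycollate macrophages (horizontal axis) for genes called in thioglycollate macrophages, 425 higher in red and 308 lower in blue, with open circles at the 20 genes whose responses differed by test (some not called in thioglycollate macrophages) and a dotted line at equal responses. Most blue points lie near 0 on the vertical axis, and Hspa1a and Rn7sk lie above the dotted line while Mthfd2 and Ifrd1 lie below it.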

How the data were processed

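The deposited table holds raw counts per gene and library, as whole numbers with 1 Ensembl gene ID per line. Per the submitters' processing notes, Bowtie2, RSEM and DESeq2 were used, with no version or role. If RSEM made the counts, they are estimates rounded to whole numbers. Neither labels nor file headers name the genome build or the annotation, which are thus not given in the sources used here. Symbols and coordinates came from GENCODE M21 (GRCm38), which held 51596 of 51789 gene IDs.

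Counts of the 12 peritoneal libraries were fitted together with edgeR 4.0.16 in R 4.3.3: filterByExpr by group, TMM scaling, robust quasi-likelihood test, 1 mean per group, no block, Benjamini-Hochberg adjustment over 16955 genes in each of 3 comparisons, two-sided, called under 0.05. The biological coefficient of variation was 0.168. CPM are TMM-scaled. Replicates differed by more than counting noise (chi-square per gene 5.30 to 9.58) and are given in the order of the replicate numbers in their titles.

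The 45 gene lists and the named genes were chosen with earlier results of these data known. Named are the 12 largest rises and falls (average log2 CPM of at least 3, groups apart), up to 4 called members per list and direction by lowest p (or the 2 most abundant where none was called), 6 differences between populations and a fixed set of marker genes. List members outside this rule that are given with a value, among them Hspa9, Gclc, Txnrd1, Gsr, Cat, Pgd, Taldo1, Nqo1, Asns, Mertk and most uncalled ones, as well as Ang, were named after their values were seen. Alternatives were median-ratio scaling, total counts, no filter, DESeq2 1.42.0, other sets of libraries, a replicate block, corrections for GC content and transcript length, an effect threshold and leaving out each library. Scripts were tested on simulated data.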

Additional observations from a re-analysis of the deposited data

Results flagged for a closer look

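The 20 genes whose response to AP-3-84 differed between thioglycollate and ascites macrophages, by an edgeR test of the difference itself with an adjusted p under 0.05, merit a second look. Values are log2 fold changes in thioglycollate minus those in ascites macrophages.

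The signed difference was above 0 for 7 genes. Mthfd2, the folate enzyme, differed by 1.50, Ifrd1 by 1.04, the arginine transporter Slc7a1 by 0.92 and Rgs1 by 0.78. The matrix proteases Mmp13 and Mmp12 differed by 0.85 and 0.42. Vasn, a surface protein that binds TGF-beta, differed by 2.53, with a log2 fold change of 2.39 in thioglycollate and of -0.14 in ascites macrophages. Vasn was scarce in thioglycollate macrophages, at 0.320 CPM with vehicle and 1.70 CPM in the treated libraries on average. In ascites it averaged 4.66 and 4.22 CPM. Vasn overlaps Dnaja3 on the same strand (log2 fold change 0.014) and Coro7 on the opposite strand (-0.46, called lower). Whether its reads come from these genes was not tested.

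For the other 13 genes it was below 0. The chaperones Hspa1l, Hspa1a, Hsph1 and Hspd1 had differences of -3.57, -1.69, -0.68 and -0.42, since they were higher by more in ascites. Hspa1l lies beside Hspa1a and shares 14.9% of their 30-base stretches, so its reads may in part be those of its neighbour. Hspa1l was scarce in thioglycollate macrophages, at 0.781 CPM with vehicle and 1.77 CPM in the treated libraries on average. It was not called there (edgeR adjusted p 0.165). In ascites it averaged 0.314 and 8.39 CPM. The immediate early gene Jun differed by -0.63, Ier5l by -2.17 and Gadd45b by -1.11. F13a1 and Ccr2, which fell in thioglycollate macrophages by 1.02 and 1.18, had log2 fold changes of -0.25 and -0.24 in ascites, and differences of -0.78 and -0.95. Rapgef6, an activator of Rap GTPases, fell in thioglycollate macrophages by 0.52 and had a log2 fold change of 0.08 in ascites, with a difference of -0.60. The 7SK RNA Rn7sk differed by -1.73, the unnamed gene model Gm42826 by -2.17 and Tmem245 by -1.82. Tmem245 spans the short RNA genes Gm25053, Gm22300 and Mir32, and whether its reads come from them was not tested.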

How the results depend on the processing

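In thioglycollate macrophages the 733 calls (425 higher, 308 lower) became 1072 without the filter on low counts (463 lower), 1075 with the 6 libraries alone (489 lower), 52 with all 48 libraries (48 and 4) and 145 with changes under 1 on the log2 scale left out (126 and 19). The transcript length correction left 271 rises. Leaving out 1 library gave 427 to 598 calls, 263 to 372 higher and 156 to 226 lower. The share of calls that were higher was 58.0% with TMM, 52.5% with median-ratio factors, 52.6% with total counts and 50.1% in DESeq2. Ascites calls became 519 without the filter, 112 with all 48 libraries, 130 at the effect threshold and 196 to 312 without 1 library. The 20 differences became 155, 2, 10 and 7 to 26 in the same order, 55 in DESeq2 and 13 with the GC correction. With a replicate block there were 314 calls (203 higher, 111 lower), 174 in ascites and 5 differences. Deviations of same-numbered thioglycollate libraries from their group means correlated at -0.02, -0.23 and -0.17 over genes, so the replicate numbers gave no sign of a pairing. With 3 libraries per group such correlations cannot exclude a pairing.

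Of 144 called named genes, none reversed, 90 kept the call without any 1 library, 93 with the replicate block and 27 with all 48 libraries. Among the uncalled, Il1b moved from -0.80 to 0.13 and Trp53 from -0.032 to 0.22 without 1 library, and Mcl1 from -0.030 to 0.076. Mcl1 was at -0.0053 in DESeq2 and with median-ratio factors, at -0.012 with the GC and the length corrections. The cause of these shifts was not tested. The vehicle libraries were deeper, and genes under 1 CPM were called in 1.79% of cases, against 12.8% at 100 to 1000 CPM.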

Other observations

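The following genes belong to no list and were chosen after their values were seen. Several short RNAs that normally lack a poly(A) tail were called higher with AP-3-84. Vaultrc5, a vault RNA, stood at 0.894, 0.911 and 0.976 CPM with vehicle and at 13.9, 11.3 and 17.5 CPM with AP-3-84 (log2 fold change 3.93, edgeR adjusted p 3.00e-08). Rmrp, the RNA of RNase MRP, and the Y RNAs Rny1 and Rny3 rose by 3.53, 2.69 and 2.20. Rmrp overlaps Ccdc107 on the opposite strand (log2 fold change 0.18). The small nucleolar RNAs Snord118 and Snord14d rose by 3.23 and 3.34, but Snord14d lies within Hspa8 on the same strand, itself a called rise, so its reads may be those of Hspa8. Rpph1, the RNA of RNase P, had a log2 fold change of 1.50 at an edgeR adjusted p of 0.0682. Of the short RNA classes, 6 of 26 tested genes annotated as misc_RNA and 4 of 51 annotated as snRNA, the latter with 1 shared profile of counts, were called, against 4.32% of all genes. Only 3 of 77 snoRNA, 1 of 47 miRNA and 0 of 7 scaRNA genes were called by edgeR, and the called miRNA gene lies within Rn7s2.

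Among protein-coding genes outside the lists, Ptgr1, which reduces leukotrienes and reactive aldehydes, and the endothelin receptor Ednrb rose by 1.17 and 1.13. The inhibitory lectin Clec12a fell by 0.59.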
